A study of Mus musculus with 11 samples.

Results

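The genes of bile acid recovery and vitamin B12 (cobalamin) uptake, best known from enterocytes of the ileum, were followed in small intestinal villi that make Gremlin. These 10 were Slc10a2, Fabp6, Slc51a, Slc51b, Nr1h4, Nr0b2, Fgf15, Cubn, Amn and Tcn2, chosen by symbol or older synonym, and each had 1 probe on the array, 10 of the 45281 probes in all. A probe counted as measured when its detection p, the chance of such a signal from background alone, was under 0.01 on 5 or more of the 11 arrays. By that rule 6 of the 10 genes were measured: Slc51a, Slc51b, Nr1h4, Cubn, Amn and Tcn2.

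The 5 Villin-Gremlin arrays held total RNA of villi from C57Bl/6J mice aged 5 months that carry Gremlin, which binds and blocks BMP signalling proteins outside the cell, behind the promoter of Villin, a gene of the gut epithelium. The 6 wild type arrays held villi of the same strain and age without the transgene. The labels name neither the segment of small intestine nor the animal behind each array, and p-values therefore speak of the spread among arrays, whose source may be technical. The design text speaks of 6 of each genotype, and a sixth Villin-Gremlin sample was not analysed here.

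Bile acids made in the liver are reclaimed in the ileum. Slc10a2 (ASBT) carries them across the brush border, Fabp6 binds them in the cytosol, and a transporter of paired subunits, Slc51a (OST alpha) and Slc51b (OST beta), exports them toward the blood. Inside the cell they activate Nr1h4 (FXR), a nuclear receptor whose known targets include Nr0b2 (SHP), Fgf15 (a hormone that restrains bile acid synthesis in the liver), Fabp6 and both Slc51 genes. Vitamin B12 bound to intrinsic factor is taken up by a receptor made of cubilin (Cubn) and amnionless (Amn), and is carried onward in the blood by transcobalamin (Tcn2).

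The promoters of both exporter subunits and of both receptor subunits are shown because the members of each pair work as one complex and are given side by side in the results. Each window runs from 250 bases before the annotated start to 50 after it, taken from RefSeq on build GRCm38.p6. Windows were found for 8 of the 10 genes. Capitals mark matches to the motifs searched.
Slc51a, chr16:32487830-32488129, minus strand: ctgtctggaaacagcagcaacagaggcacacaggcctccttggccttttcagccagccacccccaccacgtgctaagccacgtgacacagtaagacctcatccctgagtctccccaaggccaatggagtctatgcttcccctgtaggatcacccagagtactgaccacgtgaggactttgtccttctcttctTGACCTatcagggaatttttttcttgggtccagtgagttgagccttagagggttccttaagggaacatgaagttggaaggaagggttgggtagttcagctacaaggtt
Slc51b, chr9:65422724-65423023, minus strand: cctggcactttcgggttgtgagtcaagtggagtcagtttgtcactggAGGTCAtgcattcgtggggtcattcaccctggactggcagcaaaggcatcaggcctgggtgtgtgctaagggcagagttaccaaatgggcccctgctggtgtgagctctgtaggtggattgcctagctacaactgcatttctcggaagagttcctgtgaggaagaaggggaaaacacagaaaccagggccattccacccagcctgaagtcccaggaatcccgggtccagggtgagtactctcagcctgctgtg
Cubn, chr2:13491827-13492126, minus strand: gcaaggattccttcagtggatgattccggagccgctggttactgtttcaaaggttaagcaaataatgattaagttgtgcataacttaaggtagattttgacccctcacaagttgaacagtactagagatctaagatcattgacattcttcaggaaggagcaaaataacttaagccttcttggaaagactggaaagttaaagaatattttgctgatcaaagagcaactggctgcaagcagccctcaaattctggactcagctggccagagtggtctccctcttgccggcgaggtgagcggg
Amn, chr12:111270846-111271145, plus strand: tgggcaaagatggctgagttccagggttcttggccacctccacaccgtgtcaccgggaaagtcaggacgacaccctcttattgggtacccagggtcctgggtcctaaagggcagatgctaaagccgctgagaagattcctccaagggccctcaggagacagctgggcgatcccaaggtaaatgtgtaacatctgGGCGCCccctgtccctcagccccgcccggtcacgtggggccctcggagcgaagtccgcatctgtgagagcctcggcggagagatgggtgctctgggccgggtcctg

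The motifs searched on both strands were the FXR inverted repeat (named IR1), the nuclear receptor site AGGTCA that forms each of its arms, the GATA factor site AGATAA, the CDX site TTTATG, the HNF1 core GTTAAT, the Smad4 box GTCTAGAC and the BMP Smad site GGCGCC. Both Slc51 windows held AGGTCA or its complement, Slc51b at 203 and Slc51a at 58 bases before the start, and so did that of Nr1h4, against 16.3% of all 32851 windows. The Amn window held GGCGCC at 56 bases before the start, as did 11.9% of all windows, and the Cubn window held none of the motifs. The windows of Slc10a2 and Fabp6 held the CDX site (11.9% of all windows), as did that of Nr1h4. Slc10a2 and Nr1h4 also held the HNF1 core (7.1% of all windows), and Nr1h4 the GATA site (11.2%). The full inverted repeat and the Smad4 box were in 0 of the 8 windows, and in 0.00913% and 0.213% of all windows. These are matches of letters, not binding sites.

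Grem1 read 13.77 to 14.08 (log2) on the Villin-Gremlin arrays and 4.98 to 8.99 on the wild type arrays (log2 change 7.84 ± 0.57 SE, limma adjusted p = 1.74e-06), which matches the genotype labels. Only 2 of 6 wild type arrays detected Grem1, so the fitted size rests partly on values at background. Without background correction the log2 change was 6.01. Values called log2 here are background-corrected, normalized bead signals, and the dimmest detected probe of an array lay between 5.85 and 6.17. Arrays had median raw signals of 157 to 207 and 13536 to 14808 detected probes each. Villin-Gremlin 5 and wild type 1 stood apart from the other arrays of their groups on the second principal component (-33.3 and -42.8), which took 12.8% of the variance. Of the 14203 kept probes 30.8% passed the test at an adjusted p under 0.05, 16.4% higher and 14.4% lower in Villin-Gremlin villi, and 18.9% had groups that did not overlap (10.4% higher, 8.53% lower). With 1 probe a named gene, 32.5% of genes passed.

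The genes that define the ileal program were at background in both genotypes, except Fabp6 on 1 array. Slc10a2, the uptake carrier (probe ILMN_2760190), gave raw signals of 159, 155, 147, 166 and 141 on Villin-Gremlin arrays 1 to 5, against 173, 161, 157, 157, 171 and 170 on wild type arrays 1 to 6, and was detected on 0 of 5 and 0 of 6. Fabp6, the cytosolic binding protein (ILMN_2826304), gave 181, 185, 216, 207 and 156 in Villin-Gremlin and 210, 196, 199, 181, 181 and 200 in wild type villi. Fabp6 was detected on 1 array, Villin-Gremlin 3, where it gave its highest signal. Of the 10 genes, Fabp6 with 1 detected array lay nearest below the rule of 5 arrays, and Cubn with 8 nearest above it.

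The FXR target genes outside the exporter gave the same picture. The hormone gene Fgf15 (ILMN_2770929) read 198, 190, 184, 231 and 156 in Villin-Gremlin villi and 192, 211, 189, 173, 199 and 198 in wild type villi. The corepressor gene Nr0b2 (ILMN_2717630) read 166, 169, 158, 190 and 144 in Villin-Gremlin villi and 162, 161, 170, 160, 177 and 171 in wild type villi. Both were detected on 0 of 5 Villin-Gremlin and 0 of 6 wild type arrays. All signals of these 4 genes lay between 141 and 231. With 1 probe a gene, a transcript missing from these villi and a probe that fails to report it cannot be told apart. The ileal label was thus not borne out by these markers, and the genes are called by their roles in bile acid and vitamin B12 handling.

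**Figure D1:**
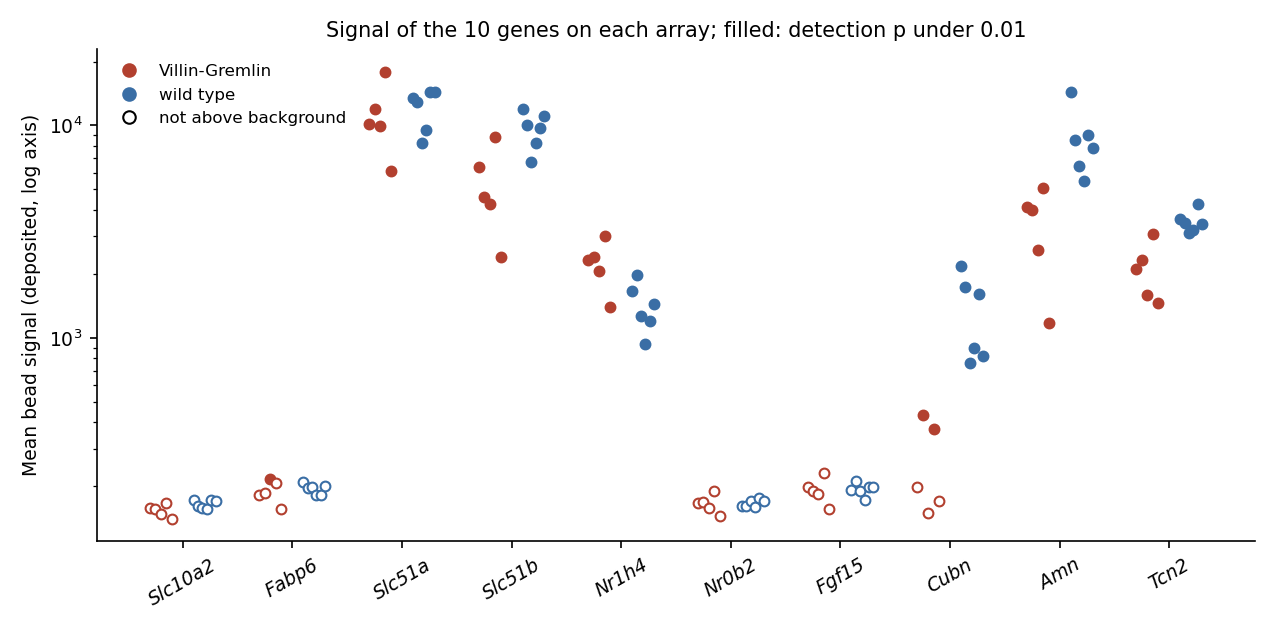
Deposited mean bead signal (log axis) of each of the 10 genes on the 5 Villin-Gremlin arrays (red, left) and the 6 wild type arrays (blue, right). Filled points had a detection p under 0.01; Slc10a2, Fabp6, Nr0b2 and Fgf15 lie between 141 and 231 in both genotypes, while Slc51a and Slc51b reach 17938 and 11976.

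Both subunits of the basolateral exporter were bright in every sample, but only Slc51b passed the test. Slc51b (ILMN_2610981) read 12.64, 12.07, 12.37, 12.66 and 11.82 (log2) on Villin-Gremlin arrays 1 to 5, against 13.31, 13.08, 12.81, 13.13, 13.10 and 13.40 on wild type arrays 1 to 6. Every Villin-Gremlin array was below every wild type array, with Villin-Gremlin 5 lowest. The mean was 12.31 ± 0.36 (SD, n = 5) in Villin-Gremlin and 13.14 ± 0.21 (SD, n = 6) in wild type villi. Slc51b was 1.77-fold lower (log2 change -0.82 ± 0.17 SE, limma adjusted p = 0.00281). In whole villi, fewer cells of a type and less RNA per cell cannot be told apart.

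Slc51a (ILMN_2746116), which encodes the alpha subunit, read 13.32, 13.52, 13.49, 13.71 and 13.17 (log2) on Villin-Gremlin arrays and 13.54, 13.47, 13.12, 13.32, 13.68 and 13.79 on wild type arrays. The groups overlapped, and wild type 3 was the lowest array of all. The mean was 13.44 ± 0.21 (SD, n = 5) in Villin-Gremlin and 13.49 ± 0.24 (SD, n = 6) in wild type villi. Slc51a had a log2 change of -0.04 with a 95% interval from -0.36 to 0.27 (limma adjusted p = 0.85), and its sign turned under 5 of 22 alternative settings. Within an array, the Slc51b minus Slc51a difference ran from -1.45 to -0.68 (log2) in Villin-Gremlin and from -0.58 to -0.19 in wild type villi, so the groups did not overlap in this measure. That comparison was chosen after the values were seen and was not tested. The difference itself mixes the brightness of separate probes, so only its shift between genotypes, -0.78 (log2), can be read.

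The bile acid receptor moved the other way. Nr1h4 (ILMN_2727013) read 11.15, 11.06, 11.35, 11.05 and 10.96 (log2) on Villin-Gremlin arrays, against 10.30, 10.57, 10.23, 9.81, 9.96 and 10.29 on wild type arrays. Every Villin-Gremlin array was above every wild type array. The mean was 11.11 ± 0.15 (SD, n = 5) in Villin-Gremlin and 10.19 ± 0.27 (SD, n = 6) in wild type villi. Nr1h4 was 1.89-fold higher (log2 change 0.92 ± 0.15 SE, limma adjusted p = 4.66e-04). Of its listed targets, Slc51b was lower in the same villi, Slc51a did not pass the test, and Fabp6, Nr0b2 and Fgf15 were not measured.

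Vitamin B12 uptake held the largest change among the members. Cubn (ILMN_1224851), which encodes the ligand-binding chain of the receptor, gave raw signals of 199, 434, 149, 372 and 170 on Villin-Gremlin arrays 1 to 5, against 2178, 1736, 762, 892, 1609 and 820 on wild type arrays 1 to 6. It was detected on Villin-Gremlin 2 and 4 and on all 6 wild type arrays, and the groups did not overlap. After normalization the mean was 6.20 ± 1.32 (log2, SD, n = 5) in Villin-Gremlin and 9.99 ± 0.59 (SD, n = 6) in wild type villi. Cubn was 13.8-fold lower in the fit (log2 change -3.79 ± 0.50 SE, limma adjusted p = 1.42e-04). That size rests partly on 3 Villin-Gremlin arrays not above background. With these set at the dimmest detected probe of their array, a reckoning added after the values were seen, the level was 10.2-fold lower. The wild type arrays alone carried Cubn past the detection rule, and without background correction, which acts most on dim values, the log2 change was -2.28.

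Amn (ILMN_2675289), the small membrane protein that anchors cubilin and brings it to the cell surface, gave raw signals of 4140, 3999, 2591, 5068 and 1178 on Villin-Gremlin arrays and 14335, 8550, 6445, 5477, 9011 and 7842 on wild type arrays. Every Villin-Gremlin array lay below every wild type array, Villin-Gremlin 5 was lowest and wild type 1 highest. After normalization the mean was 11.62 ± 0.53 (log2, SD, n = 5) in Villin-Gremlin and 12.92 ± 0.37 (SD, n = 6) in wild type villi. Amn was 2.48-fold lower (log2 change -1.31 ± 0.24 SE, limma adjusted p = 0.00143). Without these extreme arrays, Villin-Gremlin 5 and wild type 1, the log2 change was -0.94 (limma adjusted p = 5.24e-04).

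Tcn2 (ILMN_1221787), the blood carrier of vitamin B12, read 10.998, 10.998, 10.972, 11.080 and 11.028 (log2) on Villin-Gremlin arrays and 11.489, 11.427, 11.630, 11.710, 11.892 and 11.668 on wild type arrays. The groups did not overlap, and the Villin-Gremlin arrays lay close together. The mean was 11.02 ± 0.04 (SD, n = 5) in Villin-Gremlin and 11.64 ± 0.17 (SD, n = 6) in wild type villi. Tcn2 was 1.54-fold lower (log2 change -0.62 ± 0.11 SE, limma adjusted p = 0.00113). Tcn2 is also made by endothelial cells. Of 6 endothelial markers only Tek was measured, at a log2 change of -0.11, while Pecam1, Cdh5, Kdr, Vwf and Cd34 were not measured. Tek lay near background, at 6.52 in Villin-Gremlin and 6.63 in wild type villi, and the part of endothelial cells in the change of Tcn2 was not tested.

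**Figure D2:**
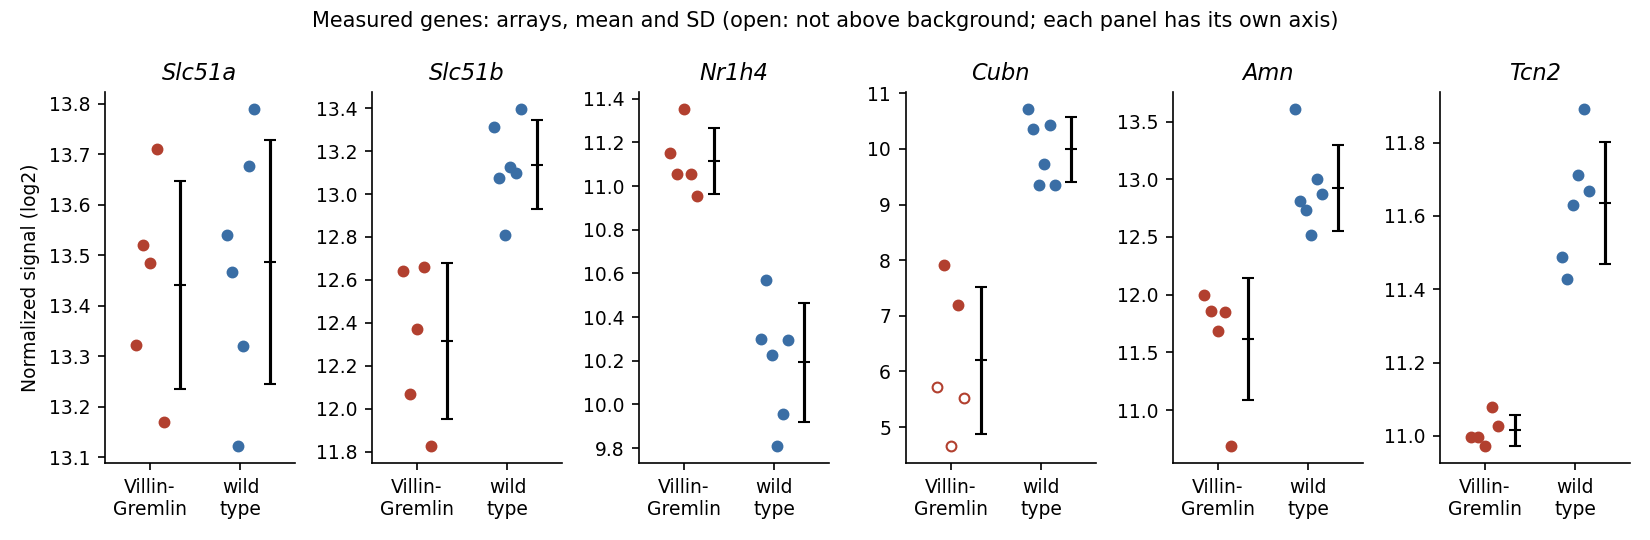
Normalized signal (log2) of the 6 measured genes on each Villin-Gremlin array (red) and wild type array (blue), with mean and SD as bars and open points for arrays not above background; each panel has its own axis. The groups separate for Slc51b, Nr1h4, Cubn, Amn and Tcn2 and overlap for Slc51a.

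Of the 6 measured members, then, 1 rose, 4 fell and 1 did not pass, beside 30.8% of all kept probes called. With 22 alternative settings each of the 5 calls held wherever the probe was tested, with log2 changes from -0.94 to -0.67 for Slc51b, 0.79 to 1.00 for Nr1h4, -4.22 to -2.28 for Cubn, -1.44 to -0.94 for Amn and -0.77 to -0.57 for Tcn2.

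Other genes of bile acid transport and sensing were mixed. Of 20 on the list 10 were measured, 2 rose, 2 fell and 6 did not pass, with a median log2 change of -0.12, beside a median of 0.00 over all 8234 measured named genes, of which 17.2% were higher and 15.4% lower. Slco2b1, an organic anion uptake carrier, was higher (log2 11.33 in Villin-Gremlin and 9.35 in wild type villi, change 1.98 ± 0.26 SE, limma adjusted p = 1.44e-04). Nr5a2 (LRH-1), a nuclear receptor of bile acid synthesis genes, was higher by 1.23 ± 0.21 (limma adjusted p = 7.18e-04), and its second kept probe by 1.06. Rxra, the partner with which FXR binds DNA, was lower (-0.63 ± 0.18 SE, limma adjusted p = 0.0176), with overlapping groups. Ephx1, an epoxide hydrolase also named as a bile acid carrier, changed by -1.49 ± 0.43 (limma adjusted p = 0.0186), with wild type 1 at 7.40 against 9.54 to 10.11 on the other wild type arrays. The exporters Abcc3 and Abcc2 (-0.17 each) and the receptors Vdr (-0.10) and Rxrb (-0.14) did not pass. The membrane bile acid receptor Gpbar1 and the canalicular pump Abcb11 were not measured.

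Few genes of bile acid synthesis were measured. Of 12 listed, 3 passed the detection rule, with a median log2 change of 0.05. Cyp27a1, the mitochondrial sterol hydroxylase of the alternative pathway, was lower (-0.60 ± 0.20 SE, limma adjusted p = 0.0376), a call that was lost under 9 of 22 alternative settings, among them without Villin-Gremlin 1, 3 or 5 or wild type 2, 4, 5 or 6, and its 2 other kept probes did not pass. Cyp7a1, the rate-limiting enzyme of the liver, and the conjugating enzyme gene Baat were not measured.

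Beyond the receptor, genes that handle cobalamin were few on these arrays. Of 16 listed, 5 were measured, 2 rose, 0 fell and 3 did not pass, taking 1 probe a gene (median log2 change 0.27). Mmab, which makes adenosylcobalamin, read 8.19 in Villin-Gremlin and 7.15 in wild type villi (change 1.04 ± 0.20 SE, limma adjusted p = 0.00204), and its second kept probe rose by 1.12. Mcee, the epimerase that feeds the cobalamin-dependent mutase, changed by 0.54 ± 0.16 (limma adjusted p = 0.0189), which was lost without Villin-Gremlin 4 (limma adjusted p = 0.0516), with median scaling (0.215) and with the replicate block (0.0759). The lysosomal exporter gene Abcd4 differed by -0.22, and its second kept probe passed at -0.51. Megalin (Lrp2) and the adaptor Dab2, which act with cubilin in other tissues, intrinsic factor (Cblif) and the transcobalamin receptor Cd320 were not measured. Of 10 genes of folate uptake and its use 5 were measured, 2 rose and 0 fell (median log2 change 0.46): Mthfd1 by 1.29 and Shmt1 by 1.17, both of one-carbon transfer. Shmt1 lay near background in wild type villi (mean 6.22, detected on 4 of 6 arrays). Without background correction the log2 changes were 0.77 for Mthfd1 and 0.49 for Shmt1.

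**Figure D3:**
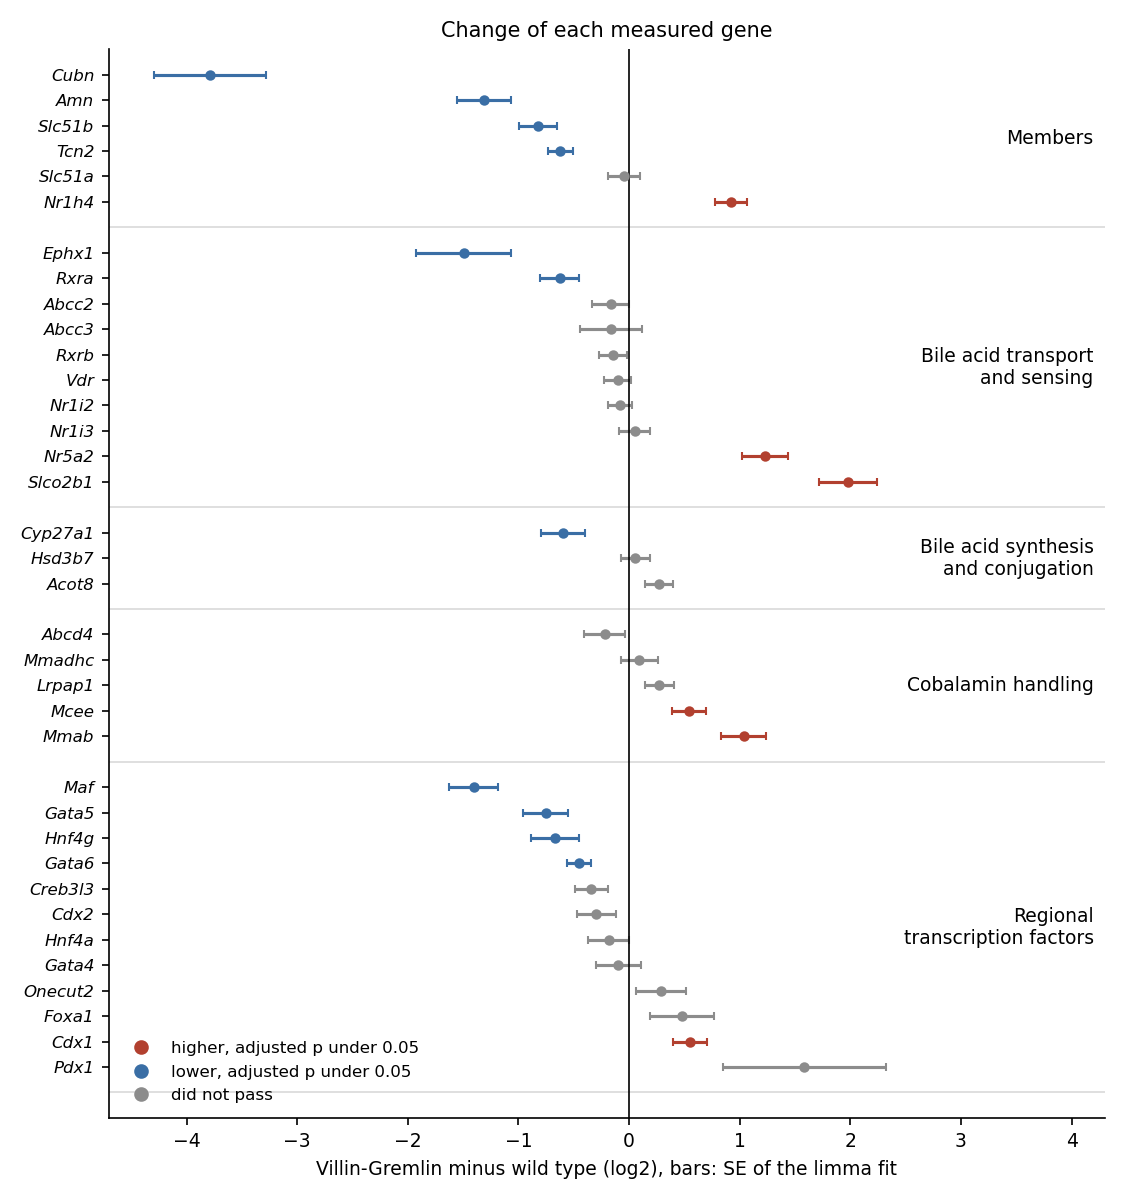
Log2 change, Villin-Gremlin minus wild type, with the SE of the limma fit, for the 6 measured members and for the measured genes of 4 lists. Cubn at -3.79 lies farthest below 0 among the members and Nr1h4 at 0.92 is the member above it; Maf, plotted at its fitted value, was not above background on any Villin-Gremlin array.

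Transcription factors that set position along the intestine were examined beside the members. Of 16 listed, 12 were measured, 1 rose, 4 fell and 7 did not pass (median log2 change -0.24). Gata4, which in mouse keeps ileal bile acid genes off in the jejunum, read 7.98 in Villin-Gremlin and 8.08 in wild type villi (-0.10 ± 0.20 SE, limma adjusted p = 0.758). Gata6 and Gata5 changed by -0.45 ± 0.11 and -0.75 ± 0.20 (limma adjusted p = 0.00677 and 0.0134; for Gata5 0.0517 without Villin-Gremlin 5 and wild type 1), and the second kept probe of Gata6 did not pass at -0.13. Maf was above background on 0 of 5 Villin-Gremlin and all 6 wild type arrays, so the wild type arrays alone carried it past the detection rule. Its level was at least 1.56-fold lower, taking the dimmest detected probe of each array as the floor. The limma adjusted p of 4.09e-04 belongs to the fitted log2 change of -1.41, which rests on Villin-Gremlin values at background. Cdx1 rose by 0.55 ± 0.15 (limma adjusted p = 0.0146; 0.0536 without Villin-Gremlin 5 and wild type 1), while Cdx2 (-0.30) and Hnf4a (-0.18) did not pass. Hnf4g changed by -0.67 ± 0.22 (limma adjusted p = 0.0332), a call lost under 9 of 22 alternative settings, among them without Villin-Gremlin 3 or 5 or wild type 2, 3 or 4.

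Pdx1, Slc40a1, Cybrd1 and Onecut2, known from the proximal small intestine, are set beside Cubn and Amn because of values seen. Pdx1 and Slc40a1 varied among the arrays of each genotype (log2 SD 0.89 and 0.81 for Villin-Gremlin, 1.78 and 1.36 for wild type). Some other proximal genes were steadier, such as Rbp2 (SD 0.11 for Villin-Gremlin, 0.07 for wild type) and Ckmt1 (0.15 and 0.08). Both lay near the top of the signal range, with group means of 14.86 to 14.96. Their SDs are thus not directly comparable with those of dimmer probes. Lactase (Lct) had an SD of 0.83 for Villin-Gremlin and 0.22 for wild type. Pdx1, a duodenal transcription factor, read 9.50, 10.15, 11.40, 11.19 and 11.54 (log2) on Villin-Gremlin arrays 1 to 5, against 5.56, 10.15, 9.58, 9.73, 10.02 and 9.99 on wild type arrays 1 to 6 (limma adjusted p = 0.123). Wild type 1, where Pdx1 was not detected, had the highest Cubn and Amn of all arrays. Slc40a1 (ferroportin), the duodenal iron exporter, read 12.62, 14.02, 14.56, 14.13 and 14.59 in Villin-Gremlin and 8.32, 12.17, 10.41, 11.36, 11.49 and 11.31 in wild type villi, again with wild type 1 lowest (log2 change 3.14 ± 0.58 SE, limma adjusted p = 0.00137).

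Cybrd1, the duodenal ferric reductase, read 7.18, 7.58, 10.63, 7.94 and 10.71 in Villin-Gremlin villi, while wild type arrays were all at background. Its level was at least 6.67-fold higher, taking the dimmest detected probe of each array as the floor. The limma adjusted p of 2.95e-04 belongs to the fitted log2 change of 3.98, which rests on wild type values at background. The Villin-Gremlin arrays alone carried Cybrd1 past the detection rule. The Villin-Gremlin arrays highest in Cybrd1, 3 and 5, had the lowest Cubn and the lowest Amn of their group. The distal hormone gene Pyy was also highest there, at 8.55 and 9.96, against 7.02 to 7.74 on the other Villin-Gremlin arrays. Fabp6 was detected on Villin-Gremlin 3 alone. Onecut2, a duodenal factor, was highest on Villin-Gremlin 5 at 13.26, against 11.93 to 12.36 on the other Villin-Gremlin arrays and 11.80 to 12.66 in wild type villi, and did not pass (0.29 ± 0.23 SE, limma adjusted p = 0.358). Which stretch of intestine each array represents is unstated in the labels, and the part of position in the changes of Cubn, Amn and Slc51b was not tested. Leaving out Villin-Gremlin 5 and wild type 1 left Cubn at -3.49, Amn at -0.94 and Slc51b at -0.67 on the log2 scale (limma adjusted p = 0.00105, 5.24e-04 and 0.0108). Under that setting Slc40a1 and Cybrd1 still changed by 2.48 and 3.53, so it cannot separate position from genotype.

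**Figure D4:**
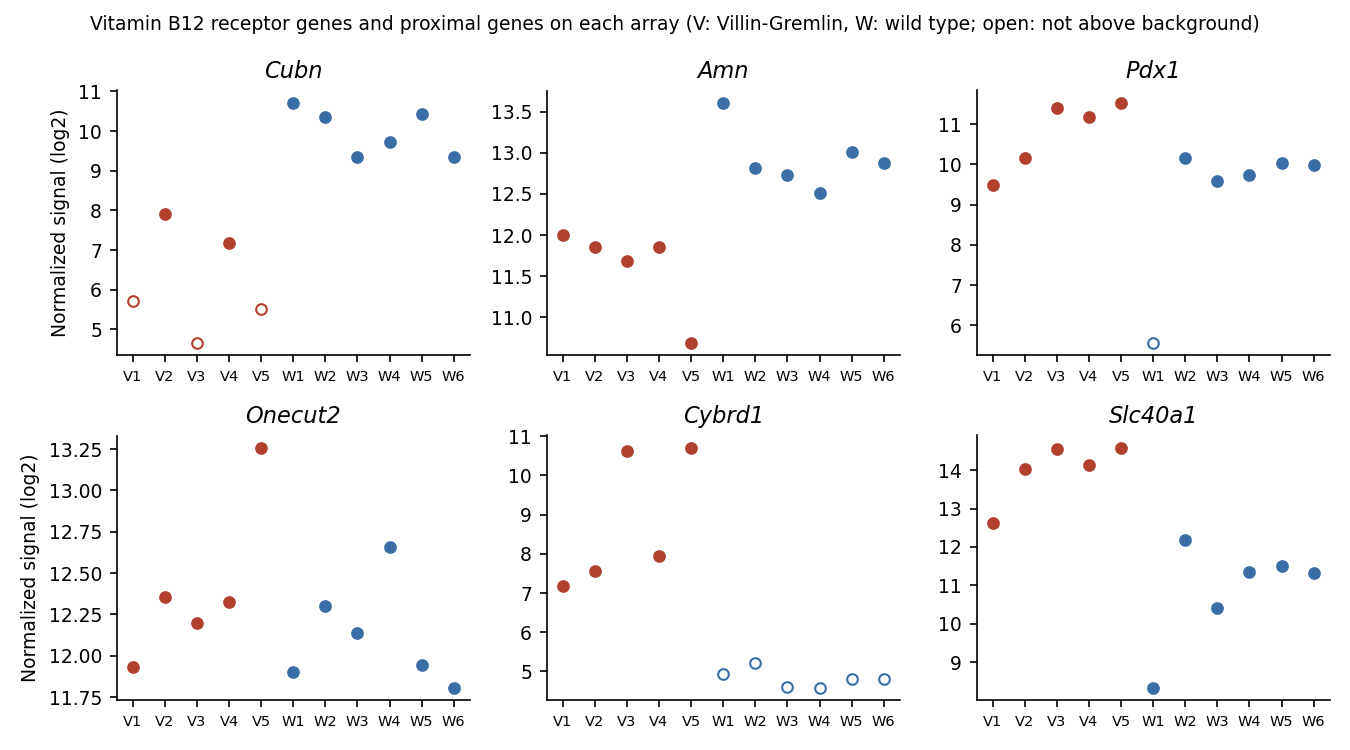
Normalized signal (log2) of Cubn, Amn, Pdx1, Onecut2, Cybrd1 and Slc40a1 on Villin-Gremlin arrays 1 to 5 (red) and wild type arrays 1 to 6 (blue); open points were not above background. Wild type 1 is highest for Cubn and Amn and lowest for Pdx1 and Slc40a1. Villin-Gremlin 1 is lowest of its group for Pdx1 and Slc40a1, highest of it for Amn and not above background for Cubn.

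Proximal enterocyte genes as a list went both ways: of 15 listed 14 were measured, 3 rose and 5 fell (median log2 change -0.08). The count that fell was 2 without Villin-Gremlin 3, 3 without Villin-Gremlin 5, 3 with median scaling and 1 with the replicate block. Besides Slc40a1 and Cybrd1, the glutathione transferase gene Gsta1 rose by 0.78, while lactase (Lct) fell by 2.06 and the sugar transporter Slc2a2 by 0.92 on the log2 scale. The call of Slc2a2 was lost with the replicate block (limma adjusted p = 0.0530). Of 8 distal genes outside the members 6 were measured, 1 rose and 2 fell (median -0.14). The meprin gene Mep1a changed by -1.13 ± 0.18 (limma adjusted p = 5.51e-04), the hormone gene Nts by -1.37 and the hormone gene Gcg by 1.41. Nts lay near background in Villin-Gremlin villi (mean 6.34, detected on 4 of 5 arrays), and its groups overlapped. Without background correction its log2 change was -0.61. Pyy differed by 0.89 and did not pass.

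Marker signals of some cell types differed beside these results, and cell numbers were not measured. Of 7 measured enterocyte markers of 8, 3 fell and 0 rose (median log2 change -0.33), among them Anpep at -0.88 and Krt20 at -0.47, and their summed normalized signal ran from 150915 to 168554 in Villin-Gremlin and from 183445 to 203508 in wild type villi. T cell markers fell in 6 of 6 measured genes of 9, with Zap70 at -2.20 and Cd3g at -2.26 (median -2.20), and their sum ran from 2546 to 5416 in Villin-Gremlin and from 11164 to 22997 in wild type villi. Macrophage and dendritic cell markers fell in 2 of 3 measured of 7 (median -1.04; sums 289 to 659 in Villin-Gremlin and 1383 to 2530 in wild type), with Csf1r and Adgre1 not measured. Goblet cell markers gave 2 higher and 1 lower of 6, with 1 higher without Villin-Gremlin 1, 3 or 4 or wild type 2, and 0 lower without Villin-Gremlin 1 or 3 (median -0.13; sums 60862 to 70927 in Villin-Gremlin and 60515 to 86560 in wild type). Paneth cell markers gave 0 calls of 3 measured of 5 (median -0.80; sums 6339 to 23135 in Villin-Gremlin and 10819 to 22427 in wild type). Smooth muscle and fibroblast markers gave 0 calls of 2 measured of 7 (median -1.28, sums 65.6 to 692 in Villin-Gremlin and 219.5 to 5368 in wild type). Colon markers gave 0 calls of 2 measured of 5 (median 0.52, sums 1675 to 3962 in Villin-Gremlin and 1359 to 3093 in wild type). Of 7 genes listed to watch for liver or pancreas carry-over, Cps1 and Ttr rose, Cela1 did not pass, and Alb, Prss2, Ctrb1 and Cpa1 were not measured (median 1.41, sums 5401 to 7496 in Villin-Gremlin and 1272 to 3421 in wild type). Cps1 and Ttr were detected on every array of both genotypes, and a carry-over of other tissue was not tested. The part of these differences in the members' changes was not tested.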

How the data were processed

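Total RNA of villi was hybridised to Illumina bead arrays, 1 per sample, after purification with a Qiagen kit and biotin labelling with an Ambion kit, per the labels' protocols. Per the file headers, the deposited table gives for each of 11 arrays the intensity (mean bead signal, not normalized) of 45281 probes, with detection p-values. A second deposited table holds the authors' log2 values, with the normalization unstated in the labels; over kept probes each column correlated best with its own array (0.999 or above) and column medians were 5.04 to 5.13, so its scale is log2 with no centring by gene.

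Probes were named through the platform annotation and Entrez identifiers (34885 with 1 symbol, 18 with several, 10378 with none). Signals were processed in R 4.3.3 by the neqc function of limma 3.58.1 (normal-exponential background from detection p-values, offset 16, log2, quantile normalization), and 14203 probes with a detection p under 0.01 on 5 or more arrays were kept. Each was fitted with lmFit and eBayes, Villin-Gremlin minus wild type, no covariate, Benjamini-Hochberg over all kept probes, called at an adjusted p under 0.05, and tested on simulated data first. Lists use the brightest kept probe of a gene by mean over all arrays. The number of arrays limits the precision, and no batch is given in the labels.

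The members, lists and motifs were chosen with earlier results of these data known. Named were all members, Grem1, called genes of each pathway list up to 6 by smallest p, measured regional transcription factors and up to 2 genes per cell type list; uncalled or unmeasured genes of known role, second probes and comparisons within an array were added after values were seen. Promoter windows are RefSeq's, build GRCm38.p6. Alternatives changed background correction, offset, scaling, source of values, detection filter, unit of the fit, array weights, variance prior, replicate block and the arrays used. Figures were drawn with matplotlib 3.10.9.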

Additional observations from a re-analysis of the deposited data

Results flagged for a closer look

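Amn on Villin-Gremlin 5 read 10.69 (log2), while the nearest Villin-Gremlin array read 11.69. Its gap to the nearest array took 0.762 of the range of the group, above Dixon's critical value of 0.71 for 5 samples. It was the 1 such case among 12 groups of values checked (6 genes in each genotype), and chance gives about 1 in 20. Without Villin-Gremlin 5 the change of Amn was -1.07 (log2, limma adjusted p = 0.00135).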

How the results depend on the processing

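The counts of members called, 1 higher and 4 lower, stayed the same under 21 of 22 alternatives (11 settings and 11 arrays left out in turn). Among probes detected on all arrays, where Cubn was not tested, 1 was higher and 3 lower. Slc51a, which did not pass under any, turned in sign with array weights (0.019), with the replicate block (0.016), without Villin-Gremlin 5 and wild type 1 (0.034), without Villin-Gremlin 5 (0.024) and without wild type 6 (0.016). With 1 array left out its change ran from -0.12 to 0.024. Among genes that did not pass, Gata4 turned with the replicate block (0.0026) and without wild type 4 (0.0045) or 6 (0.0025), within -0.22 to 0.0045 with 1 array left out, Abcc3 without Villin-Gremlin 1 (0.010), within -0.40 to 0.010, and Mmadhc with median scaling (-0.0022). Replicate numbers here are those of the sample titles, and arrays with the same number correlated at -0.21 to 0.12 in their deviations over kept probes. The column names number the Villin-Gremlin arrays differently, and a pairing by those names was not checked. With the replicate block Slc51b changed by -0.77, Nr1h4 by 0.94, Cubn by -3.92, Amn by -1.32, Tcn2 by -0.61 and Grem1 by 7.79, Rxra lost its call (adjusted p = 0.0557), Pdx1 gained one (0.0276), and 1860 probes were higher and 1543 lower over the table, against 2328 and 2050. Median scaling called 1515 higher and 1883 lower; the cause was not tested. Of the list counts under the alternatives, 34 moved by over 1.5 times and 670 did not. Signals near background limit Cubn in Villin-Gremlin villi, where 2 of 5 arrays were detected, and the 4 members that were not measured; with no detection filter these gave adjusted p = 0.652 for Slc10a2, 0.923 for Fabp6, 0.797 for Nr0b2 and 0.715 for Fgf15 (limma over 45281 probes).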
